A study of Mus musculus with 8 samples.

Results

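The genes described here are 10 immediate early transcription factors, namely the EGR factors Egr1, Egr2 and Egr3, the FOS factors Fos, Fosb, Fosl1 and Fosl2, and the JUN factors Jun, Junb and Jund. They were chosen by symbol, and all 10 were found among the 18671 genes of the deposited table. BMEL cells are a line of bipotential cells from embryonic mouse liver. RNA was collected 48 h after transfection of a GRHL2 plasmid (pIGrhl2, 4 samples) or of the control vector pcDNA3 (pcDNA, 4 samples). The GRHL2 plasmid carries a Flag-tagged human GRHL2 cDNA under an EEF1A1 promoter and also encodes EGFP, so GRHL2 is not the sole difference between the plasmids. Both groups were transfected with the same reagent and grown on collagen in medium with serum, IGFII, mouse EGF and insulin. All samples come from a single cell line, and cells that did not take up the plasmid are part of each sample.

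Immediate early genes are switched on within minutes of a growth factor or stress signal, without new protein synthesis. Much of this control passes through MAP kinases to serum response factor (SRF) and its ternary complex partners, which bind CArG boxes, and to CREB and ATF proteins, which bind cAMP response elements. EGR proteins are zinc finger factors that bind GC-rich sites and are held back by the NAB corepressors. FOS and JUN proteins are leucine zipper factors that pair to form AP-1. FOS proteins need a JUN partner, whereas JUN proteins also pair with each other and with ATF and MAF proteins.

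The factors did not move together. Egr1 and Egr2 were higher in pIGrhl2 samples, Jun was lower, and no other factor passed the threshold in the comparison of the 2 groups (limma, adjusted p under 0.05 over all genes). Thus 2 of 10 factors were called higher, against 10.5% of all genes, and 1 of 10 was called lower, against 5.91%. All 4 pIGrhl2 samples lay apart from all 4 pcDNA samples for Egr1, Egr2 and Jun, that is for 3 of 10 factors against 23.8% of all genes. Samples that share a replicate number deviated together, as did samples of different numbers within replicates 1 and 2 and within 3 and 4. With the number as a block 3 factors were called higher, against 18.2% of all genes, and 5 lower, against 13.9%. These 8 included Fosb on the higher side and Fos, Fosl1, Fosl2 and Jund on the lower side. Egr3 and Junb were not called in either fit. The median log2 fold change was -0.027 over the 10 factors and 0.0066 over all genes.

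**Figure D1:**
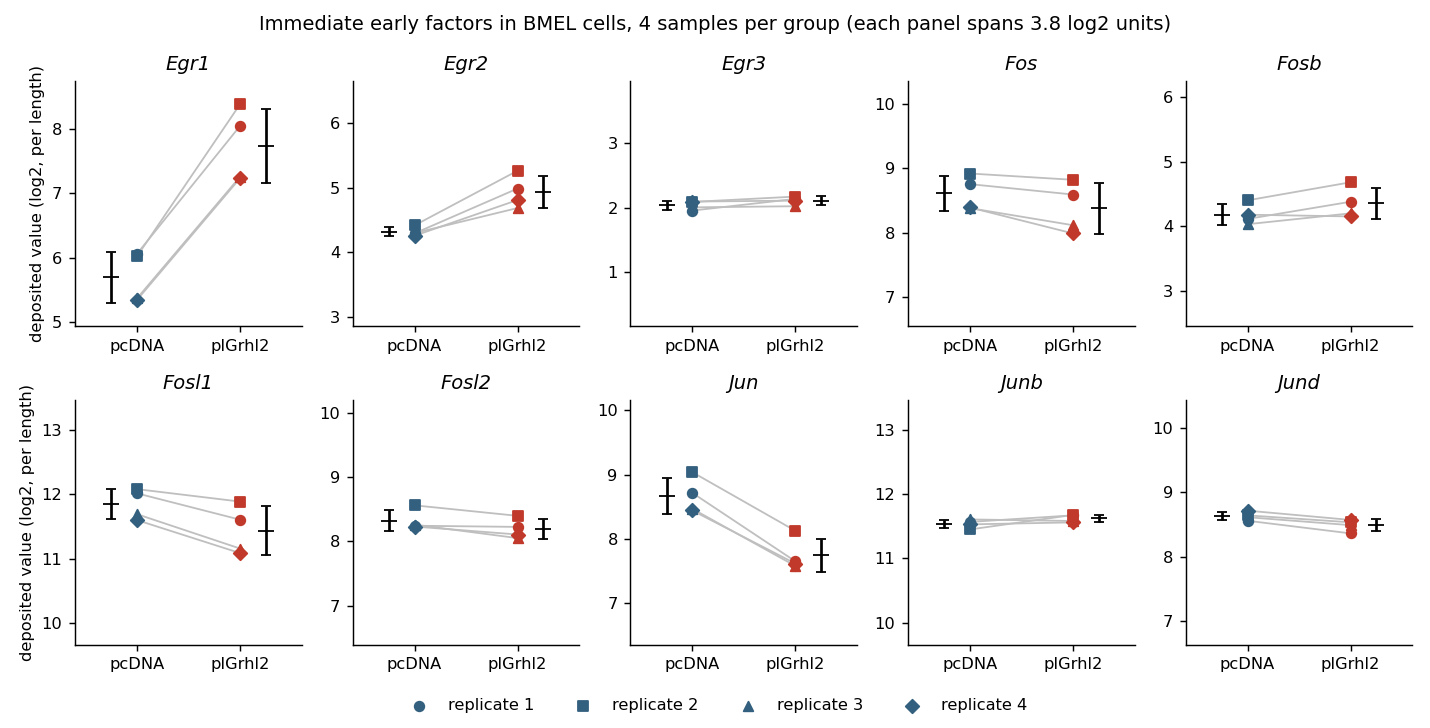
Deposited log2 values per transcript length of the 10 factors in pcDNA and pIGrhl2 samples. Points are samples, their shape gives the replicate number, grey lines join samples of the same number, and bars show the mean ± SD (n = 4). Egr1 and Egr2 are higher in every pIGrhl2 sample than in any pcDNA sample, and Jun is lower in every one.

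Start-site sequences were examined for 7 of the 10 factors, as RefSeq windows on GRCm38.p6 that run from 250 bases before a start to 50 bases after it. No window was searched for Egr1, Egr3 or Fosl1, and Egr1 was set aside before the search. Whether their start sites hold these motifs is therefore not known here. Shown are the 4 windows in which any of 5 motifs was found on either strand. They are those of Egr2 and Jun, which moved in opposite directions, and of Fosb and Fosl2, which were not called without the replicate block over all 8 samples. Matches are in capitals, each sequence runs 5′ to 3′ on the strand of its gene, and distances are from the first base of the match to the start.
The table holds 5 windows for Egr2, of which the window nearest the start of the first-numbered GENCODE transcript was searched. This Egr2 window (chr10:67537619-67537918, plus strand) holds a CArG box, CCATATATGG, 72 bases before the start.
Egr2: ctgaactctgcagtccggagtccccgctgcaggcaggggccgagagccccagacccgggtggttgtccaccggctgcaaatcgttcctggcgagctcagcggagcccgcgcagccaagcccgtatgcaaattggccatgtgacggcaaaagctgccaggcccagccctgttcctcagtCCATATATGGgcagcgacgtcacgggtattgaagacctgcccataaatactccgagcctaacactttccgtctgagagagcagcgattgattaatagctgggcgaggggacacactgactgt
The Jun window (chr4:95052173-95052472, minus strand) holds TGACATCA, a match to TGACNTCA, 45 bases before the start.
Jun: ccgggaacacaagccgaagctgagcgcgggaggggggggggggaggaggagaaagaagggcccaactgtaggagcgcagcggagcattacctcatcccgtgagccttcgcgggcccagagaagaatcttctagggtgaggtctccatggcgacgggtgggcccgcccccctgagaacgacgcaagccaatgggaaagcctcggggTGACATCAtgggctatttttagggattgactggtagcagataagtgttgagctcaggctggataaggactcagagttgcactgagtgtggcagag
The Fosb window (chr7:19309996-19310295, minus strand) holds GCGGGGGCG, a match to the EGR-type motif GCGNGGGCG, 50 bases before the start.
Fosb: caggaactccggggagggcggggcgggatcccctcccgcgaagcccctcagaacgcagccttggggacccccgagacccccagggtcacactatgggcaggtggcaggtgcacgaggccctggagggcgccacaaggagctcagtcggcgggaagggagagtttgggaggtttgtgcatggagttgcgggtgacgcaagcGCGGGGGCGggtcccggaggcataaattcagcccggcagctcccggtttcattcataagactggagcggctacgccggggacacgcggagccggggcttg
The Fosl2 window (chr5:32136222-32136521, plus strand) holds GCGGGGGCG, 79 bases before the start, and AACCGGTT, a match to the Grainyhead-type motif AACNNGTT, which begins 4 bases before the start and spans it.
Fosl2: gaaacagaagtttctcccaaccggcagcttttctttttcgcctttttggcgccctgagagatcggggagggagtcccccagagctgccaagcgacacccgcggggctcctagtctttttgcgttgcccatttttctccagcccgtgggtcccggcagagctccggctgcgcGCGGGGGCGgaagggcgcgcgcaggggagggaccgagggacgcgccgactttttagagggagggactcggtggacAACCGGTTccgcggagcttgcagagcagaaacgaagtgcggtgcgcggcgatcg

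Over all 32851 windows of this length, the CArG box was found in 1.63%, TGACNTCA in 8.83%, GCGNGGGCG in 5.55% and AACNNGTT in 4.20%. The AP-1 motif TGANTCA was found in 7.81% of all windows and in none of the 7 examined here. No match printed here overlaps another. The windows of Fos, Junb and Jund held none of the 5 motifs, which says only that these letters are not in these 300 bases. The Jund window is placed on a RefSeq start 1210 bases from that of the GENCODE transcript and lies wholly before the gene as annotated there, and the start of the Fosl2 window is 671 bases from its GENCODE start. The printed matches to AACNNGTT and the CArG box read the same on both strands. Whether any of these matches is bound in BMEL cells was not measured.

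The paper reports ectopic GRHL2 protein in transfected BMEL cells, from immunoblots against GRHL2 and the Flag tag. In the RNA values the transfected gene was checked by its mouse symbol. Grhl2 was 1.71 log2 units higher in pIGrhl2 samples (standard error 0.22, adjusted p = 0.00100, limma), and its plasmid is a human cDNA, so the source of these reads is not known. All 14 fetal liver and biliary epithelial markers were in the table, at mean levels from 4.95 (Ttr) to 15.4 (Krt8), and Alb was at 5.18 in pIGrhl2 and 5.25 in pcDNA samples. Epcam (1.75), Krt7 (0.44) and Foxa1 (0.21) were called higher and Afp (-0.21) lower in log2 fold change by limma, and 7 of the 14 were called with the replicate block. Over all genes 10.5% were called higher and 5.91% lower without the block, and 18.2% and 13.9% with it, which also stand beside the marker counts that follow. Of the blood markers, Ptprc was at 0.88 and 0.90 in pIGrhl2 and pcDNA samples, whereas the macrophage markers Cd68 and Csf1r reached 6.25 and 6.08, and 4.45 and 4.48. Of the endothelial markers, Cdh5 was at 1.24 and 1.23 and Pecam1 at 3.25 and 3.33. None of the 5 haematopoietic and 5 endothelial markers in the table was called by limma, and with the replicate block 1 and 2 of them were. The part of these markers in the results was not tested. Of 4 stellate and fibroblast markers, Pdgfrb was called higher at a level of -0.12 against -0.23, while Col1a1 was at 5.35 against 5.22 and Des at 3.47 against 3.50, and 2 were called with the replicate block. The table lists log2 values with no read totals, so the depth behind each value is unknown. Fewer cells that express a gene and less RNA per cell cannot be told apart in these bulk samples.

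EGR factors. Egr1 encodes the best known factor of the family and is a direct target of SRF after growth factor signals. Its gene (ENSMUSG00000038418) lies at GRCm38 chromosome 18, 34859823 to 34864984. Egr1 was at 8.04, 8.38, 7.25 and 7.23 in pIGrhl2 replicates 1 to 4, and at 6.06, 6.02, 5.37 and 5.34 in the pcDNA replicates. The lowest pIGrhl2 sample was thus above the highest pcDNA sample, and within each group replicates 1 and 2 were above replicates 3 and 4. The group difference was 2.03 log2 units (standard error 0.27, 95% interval 1.42 to 2.64, adjusted p = 0.00124, limma), or 4.08-fold. The difference within a replicate number was 1.98, 2.36, 1.89 and 1.89, so it varied less than the levels did. No gene of the table had a larger increase, a fact known when the factors were chosen.

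Egr2, a relative of Egr1 known from hindbrain and Schwann cell development, lies at GRCm38 chromosome 10, 67535475 to 67542188 (ENSMUSG00000037868). Its values were 4.99, 5.26, 4.68 and 4.81 in pIGrhl2 samples and 4.29, 4.41, 4.29 and 4.25 in pcDNA samples. The groups did not overlap, and the pcDNA samples lay within a much narrower range than the pIGrhl2 samples. The increase was 0.62 log2 units (standard error 0.11, 95% interval 0.39 to 0.86, adjusted p = 0.00388, limma), and the 4 differences within a number ran from 0.39 to 0.85. For both Egr1 and Egr2 the exact two-sided permutation test gave p = 0.0286, the smallest that 4 against 4 samples allow.

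Egr3 (GRCm38 chromosome 14, 70077203 to 70082614) was the lowest of the 10 factors. It was at 2.14, 2.18, 2.03 and 2.11 in pIGrhl2 samples and at 1.96, 2.09, 2.01 and 2.10 in pcDNA samples. The groups overlapped, and the difference of 0.074 (95% interval -0.014 to 0.16) had an adjusted p of 0.237 (limma), or 0.0994 with the replicate block. Each pIGrhl2 sample was above the pcDNA sample of its number, by 0.015 to 0.18. The fourth family member, Egr4, which is not among the 10, was at 0.97 ± 0.054 (SD, n = 4) in pIGrhl2 and 0.87 ± 0.0022 (SD, n = 4) in pcDNA samples. Its difference of 0.098 was called (adjusted p = 0.0212, limma). If the values are rlog values, as was assumed, differences of genes this low are shrunk, by an amount not measured here.

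JUN factors. Jun encodes the AP-1 subunit c-JUN, which also acts on its own gene. It lies at GRCm38 chromosome 4, 95049034 to 95052222, on the minus strand (ENSMUSG00000052684). Jun was at 7.65, 8.13, 7.58 and 7.62 in pIGrhl2 samples, and at 8.72, 9.04, 8.47 and 8.44 in pcDNA samples. The highest pIGrhl2 sample, replicate 2, was below the lowest pcDNA sample, and replicate 2 was also the highest of the pcDNA samples. Jun fell by 0.92 log2 units (standard error 0.15, adjusted p = 0.00333, limma), to 0.528 of the control level, with an exact two-sided permutation p of 0.0286. Within a replicate number the difference was -1.06, -0.91, -0.89 and -0.82. Among the 18671 genes, 12 others had as large a decrease or a larger one.

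Junb encodes an AP-1 subunit that can restrain c-JUN and lies at GRCm38 chromosome 8, 84974484 to 84978718. It was at 11.67, 11.67, 11.58 and 11.56 in pIGrhl2 samples and at 11.57, 11.45, 11.61 and 11.53 in pcDNA samples. The groups overlapped, and the difference of 0.083 (95% interval -0.025 to 0.19) had an adjusted p of 0.279 (limma), or 0.168 with the replicate block. In replicates 1 and 2 the difference was 0.16, and in replicates 3 and 4 it was 0.0036. The interval thus holds no change in Junb beyond 1.14-fold, while Jun, from the same family, was lower by 1.89-fold.

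Jund, the JUN gene that many resting cells already express, lies at GRCm38 chromosome 8, 70698949 to 70700616. It was at 8.37, 8.54, 8.49 and 8.57 in pIGrhl2 samples and at 8.56, 8.64, 8.62 and 8.72 in pcDNA samples. A single pIGrhl2 sample, replicate 4, lay above the lowest pcDNA sample, and each pIGrhl2 sample was below the pcDNA sample of its number. The difference was -0.14 (95% interval -0.27 to -0.014, adjusted p = 0.123, limma), and blocking on the replicate number gave an adjusted p of 0.0166.

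**Figure D2:**
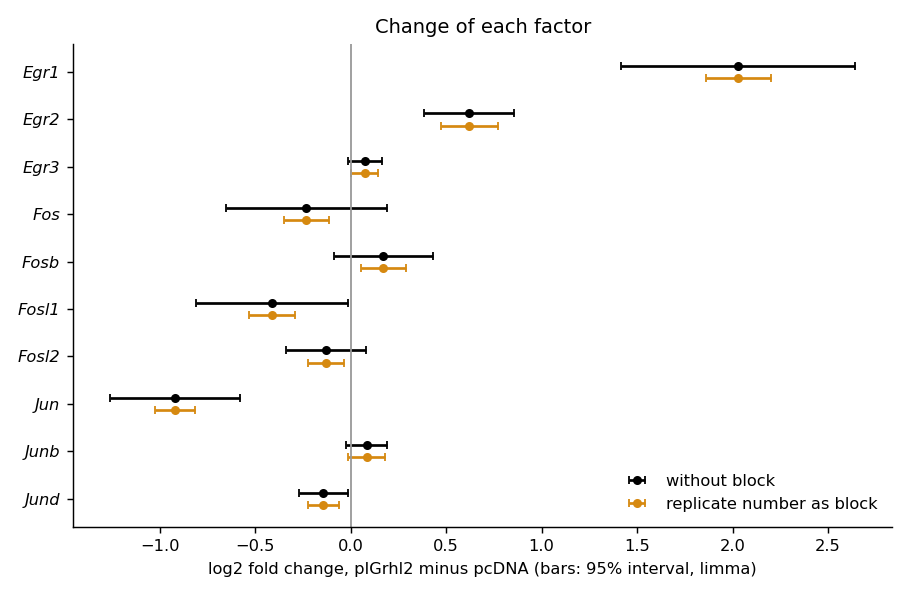
Log2 fold change of each factor, pIGrhl2 minus pcDNA (horizontal axis), with 95% intervals from limma without (black) and with (orange) the replicate number as a block. The intervals of Egr1, Egr2, Jun, Fosl1 and Jund stay clear of 0 in both fits, those of Egr3, Fos, Fosb and Fosl2 only with the block, and that of Junb in neither. These intervals are not adjusted for the number of genes.

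FOS factors. Fosl1, which encodes the FRA1 subunit of AP-1, was the most abundant FOS factor per transcript length (GRCm38 chromosome 19, 5447547 to 5455946). Fosl1 was at 11.61, 11.89, 11.16 and 11.09 in pIGrhl2 samples and at 12.02, 12.08, 11.69 and 11.60 in pcDNA samples. The groups overlapped, since pIGrhl2 replicate 1 was above pcDNA replicate 4 and pIGrhl2 replicate 2 above pcDNA replicates 3 and 4, but each pIGrhl2 sample was below the pcDNA sample of its number. The difference was -0.41 log2 units (95% interval -0.81 to -0.015, adjusted p = 0.147, limma), and with the replicate block its adjusted p was 0.000698. Without pIGrhl2 replicate 2 it was -0.56, with an adjusted p of 0.0361 in the fit without the block.

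Fos, the founding member of the family and a classic target of SRF, lies at GRCm38 chromosome 12, 85473890 to 85477273. It was at 8.59, 8.82, 8.12 and 7.99 in pIGrhl2 samples and at 8.75, 8.92, 8.38 and 8.39 in pcDNA samples. The groups overlapped for most of their range, and the difference within a replicate number was -0.16, -0.098, -0.26 and -0.40. The difference of -0.23 (95% interval -0.65 to 0.19) had an adjusted p of 0.449 (limma), or 0.00989 with the replicate block. With 1 sample left out it ran from -0.38 (without pIGrhl2 replicate 2) to -0.10 (without pIGrhl2 replicate 4). Fos thus had a negative sign where Egr1, which shares its SRF control in other cells, had a positive one. Within a sample, Egr1 minus Fos was between -3.05 and -2.70 log2 units in pcDNA samples and between -0.86 and -0.44 in pIGrhl2 samples.

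Fosb and Fosl2 encode further FOS proteins that pair with JUN. Fosb (GRCm38 chromosome 7, 19302696 to 19310051) was at 4.38, 4.68, 4.20 and 4.15 in pIGrhl2 samples and at 4.11, 4.40, 4.03 and 4.18 in pcDNA samples. Its difference of 0.17 (95% interval -0.085 to 0.43) had an adjusted p of 0.348 (limma), or 0.0329 with the replicate block, and replicate 4 had the opposite sign, at -0.027. Without pIGrhl2 replicate 2 the difference of Fosb was 0.063 in the fit without the block. Fosl2, which encodes FRA2 (GRCm38 chromosome 5, 32135801 to 32157842), was at 8.23, 8.40, 8.05 and 8.11 in pIGrhl2 samples and at 8.24, 8.56, 8.26 and 8.23 in pcDNA samples. The groups of both genes overlapped. The difference of Fosl2 was -0.13 (95% interval -0.34 to 0.081), with an adjusted p of 0.392 (limma), or 0.0461 with the replicate block. That call of Fosl2 was lost when equal upper quartiles were set as well.

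Levels were compared between factors on the deposited scale, which is per transcript length. In pcDNA samples the order of the group means was Fosl1 (11.85), Junb (11.54), Jun (8.67), Jund (8.64), Fos (8.61), Fosl2 (8.32), Egr1 (5.70), Egr2 (4.31), Fosb (4.18) and Egr3 (2.04). Jun overlapped with Jund, Jund with Fos and Fos with Fosl2, as did Fosl1 with Junb and Egr2 with Fosb. In pIGrhl2 samples the order was Junb (11.62), Fosl1 (11.44), Jund (8.49), Fos (8.38), Fosl2 (8.20), Jun (7.75), Egr1 (7.73), Egr2 (4.93), Fosb (4.36) and Egr3 (2.11). There, Jund, Fos, Fosl2 and Jun each overlapped with the next, as did Junb with Fosl1 and Egr2 with Fosb.

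Egr1 and Jun thus came to similar levels. Within a sample, Egr1 minus Jun was between -3.10 and -2.66 log2 units in the pcDNA samples. In pIGrhl2 samples it was 0.39, 0.25, -0.33 and -0.39 in replicates 1 to 4. Fos and Jun, whose products form the classic AP-1 pair, differed by -0.12 to 0.038 in pcDNA samples, whereas in pIGrhl2 samples Fos was above Jun by 0.37 to 0.94. Fosl1 was above Fos by 3.16 to 3.31 in pcDNA samples and by 3.02 to 3.10 in pIGrhl2 samples. These differences within samples are given as a description, without a test.

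**Figure D3:**
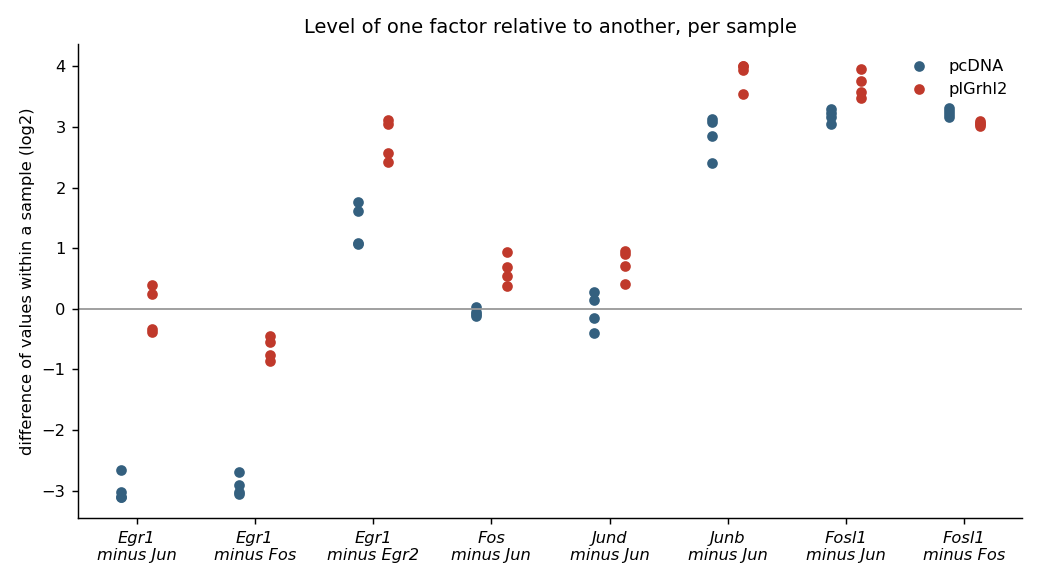
Difference between the log2 values of a pair of factors within each sample, for 8 pairs, in pcDNA (blue) and pIGrhl2 (red) samples. Egr1 minus Jun lies between -3.10 and -2.66 in pcDNA samples and between -0.39 and 0.39 in pIGrhl2 samples.

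Much of the spread of these factors within a group was shared between them. In pcDNA samples, replicates 1 and 2 were on average above replicates 3 and 4 by 0.68 for Egr1, 0.45 for Fos, 0.42 for Jun and 0.40 for Fosl1. In pIGrhl2 samples the same shift was 0.97 for Egr1, 0.65 for Fos, 0.62 for Fosl1 and 0.29 for Jun. Junb and Jund moved little, with shifts of -0.059 and -0.064 in pcDNA and 0.10 and -0.082 in pIGrhl2 samples. The labels name no batch, and the source of this shift was not tested.

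Deviations from the group mean of Egr1 had a Pearson's r of 0.990 with those of Fosl1 and 0.981 with those of Fos, over 8 samples. Fos and Fosl1 had an r of 0.989. The corresponding r of Jund was -0.42 with Egr1 and -0.46 with Junb. The points share libraries and replicate numbers, so these values are a description only. Among 10972 other genes with a mean of at least 5, 900 had an r above 0.9 with Egr1, 1051 with Fos and 461 with Jun. The genes most like Egr1 in this respect were Usp14 (r 0.999), Hdgf (0.997), Nifk (0.996), Rars (0.995) and Pmm2 (0.994), none of which was called by limma without the block (Rars had an adjusted p of 0.0978, or 0.00116 with it). Those most like Fos were Pno1 (0.999), Polr1a (0.995), Ccdc86 (0.995), Rnf39 (0.994) and Mettl6 (0.994), and none of them was called without the block. Those most like Jun were Usp12 (0.993), Kdm8 (0.991), Prl2c2 (0.984), Sqstm1 (0.982) and Igfbp3 (0.979), and Prl2c2 belongs to a family of near-identical genes whose reads can be split. Without the block, Usp12 and Sqstm1 were called lower (log2 fold changes of -0.21 and -0.42). Igfbp3 was called higher (0.28), opposite to Jun, and Kdm8 and Prl2c2 were not called.

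**Figure D4:**
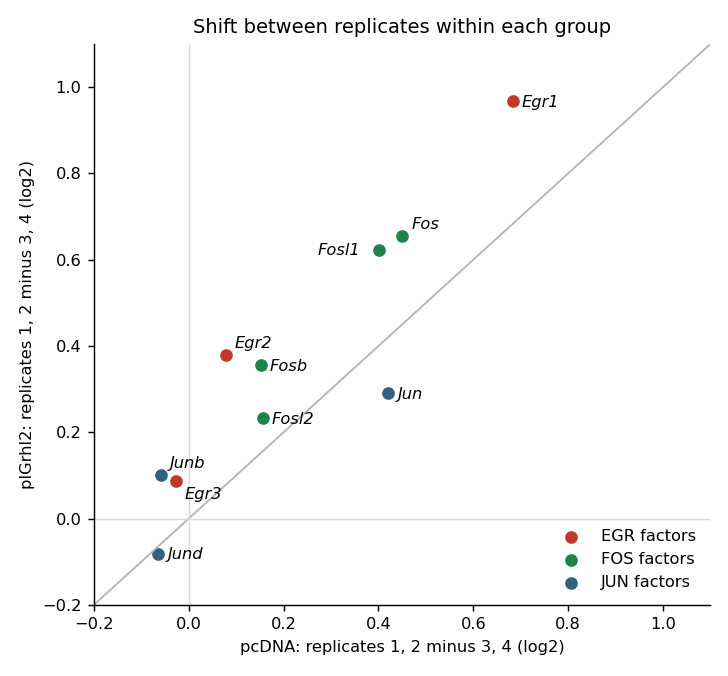
Mean of replicates 1 and 2 minus the mean of replicates 3 and 4 for each factor, in pcDNA samples (horizontal axis, log2) and in pIGrhl2 samples (vertical axis, log2), with the line of equal shifts. Egr1 has the largest shift on both axes (0.68 and 0.97), followed by Fos, and Jund is below 0 on both.

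The direction of Egr1, Egr2 and Jun did not depend on these replicate numbers. In replicates 1 and 2 alone the differences were 2.17 for Egr1, 0.77 for Egr2 and -0.99 for Jun, and in replicates 3 and 4 alone they were 1.89, 0.47 and -0.85. Fos and Fosl1 had differences of -0.13 and -0.30 in replicates 1 and 2, and of -0.33 and -0.52 in replicates 3 and 4. In replicates 3 and 4 alone Fos, Fosl1 and Fosl2 were called lower, with adjusted p-values of 0.00882, 0.000960 and 0.0460 (limma, 2 against 2 samples). Whether the differences themselves differ between these pairs of replicates was not tested.

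Beyond the 10 factors, 35 other immediate early genes of the list were in the table and Gem was not, and of the 35, 5 were called higher, 5 lower and 25 not, against 10.5% higher and 5.91% lower over all genes. The genes called higher were Nr4a3 (0.42), Maff (0.41), Arc (0.23), Ccn2 (0.23) and Egr4 (0.098, as above), all given as log2 fold changes. Nr4a3 is an orphan nuclear receptor at a low level of 2.96 against 2.54, whereas Ccn2, a matrix signalling protein, was at 10.87 against 10.64. The largest decrease was that of Plk2, a Polo-like kinase, at 11.78 ± 0.30 in pIGrhl2 and 12.92 ± 0.37 in pcDNA samples (SD, n = 4), which fell by 1.14 on the log2 scale (adjusted p = 0.00333, limma). Csrnp1 (-0.66), Btg2 (-0.43), an antiproliferative factor, and Klf10 (-0.27) were also lower. The median of this list was 0.015. Without pcDNA replicate 3, 6 of these genes were called instead of 10, beside 1453 higher and 866 lower over all genes. With equal medians 2 were called higher and 6 lower, beside 1119 and 1256. With the replicate block 9 were called higher and 12 lower, against 18.2% and 13.9% of all genes.

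Leucine zipper factors that can pair with FOS or JUN or bind related sites were called lower in 8 and higher in 6 of 28 cases, with 14 not called, against 5.91% lower and 10.5% higher over all genes. With the filter on a mean of at least 5, 7 were called lower and 1 higher, beside 899 lower and 715 higher over all genes kept. Of the 28, Ddit3, the stress factor CHOP, had the largest decrease (-1.24, adjusted p = 2.90e-05, limma), followed by Atf3 (-0.69), Atf6 (-0.45) and Creb5 (-0.42). Atf3, a common JUN partner, was at 9.56 ± 0.42 in pIGrhl2 and 10.25 ± 0.29 in pcDNA samples (SD, n = 4), and its groups overlapped. Higher were the large MAF factors Maf (0.56) and Mafa (0.24), the small MAF factor Maff (0.41), also counted above, and Cebpd (0.19). Mafa and Cebpd were at 2.68 and 3.05 in pIGrhl2 samples. With the replicate block 13 of the 28 were called lower and 7 higher, against 13.9% and 18.2% of all genes.

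**Figure D5:**
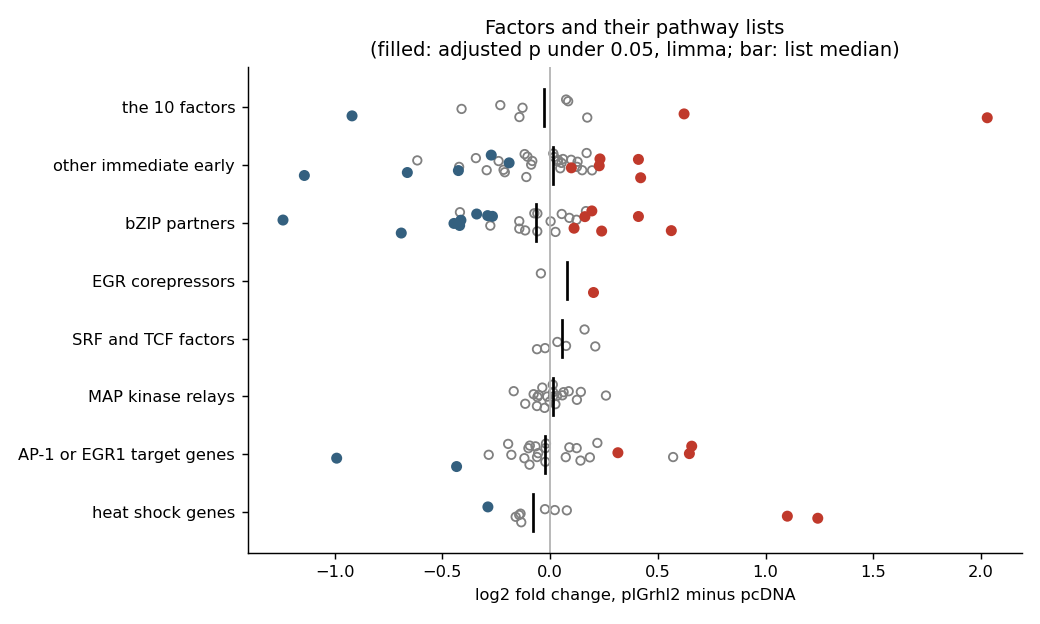
Log2 fold change (pIGrhl2 minus pcDNA) of the genes of each pathway list, 1 point per gene. Filled points have an adjusted p under 0.05 (limma, red higher and blue lower), and bars show list medians, which lie between -0.079 and 0.079. The MAP kinase and SRF lists hold no filled point.

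The MAP kinase and SRF genes were compared as upstream regulators. None of the 21 MAP kinase relay genes in the table was called, against 10.5% of all genes higher and 5.91% lower, with a list median of 0.012. None of 6 genes for SRF and its partners was called either, and the median was 0.054. In limma with the replicate block, 2 of the 21 were called higher and 1 lower, and 2 of the 6 higher, against 18.2% higher and 13.9% lower over all genes. RNA levels do not measure the activity of these kinases. Of the EGR corepressors, Nab2, itself a known EGR target, rose from 6.24 ± 0.042 to 6.44 ± 0.036 (SD, n = 4, adjusted p = 0.00918, limma), a call not made in replicates 1 and 2 alone, and Nab1 differed by -0.043 (adjusted p = 0.727).

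Among 25 genes known from other cells as AP-1 or EGR1 targets, 3 were called higher, 2 lower and 20 not, and their median was -0.022. Over all genes 10.5% were called higher and 5.91% lower, so these shares are near the background in this fit. Sphk1, sphingosine kinase 1, rose by 0.66 and Plau, the urokinase gene, by 0.65, with adjusted p-values of 0.000236 and 0.000207 (limma). Pdgfa, a platelet-derived growth factor chain, rose by 0.31. Hmox1, the gene of heme oxygenase 1, fell by 0.99 (adjusted p = 0.000248) and Mmp13, a collagenase, fell by 0.43 (adjusted p = 0.000996). Plaur, Areg and Ccnd1 were not called, with differences of -0.022, -0.056 and 0.072. With the replicate block 7 of these 25 genes were called higher and 6 lower, against 18.2% and 13.9% of all genes.

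Heat shock genes, which respond to stress and handling as immediate early genes do, were compared too. Hspa1a was at 5.12 ± 0.41 in pIGrhl2 and 4.02 ± 0.027 in pcDNA samples, and Hspa1b at 7.28 ± 0.50 and 6.04 ± 0.15 (SD, n = 4), and both were called higher (adjusted p = 0.00189 and 0.00346, limma). They are near-identical neighbours whose reads the counting could split. Bag3 was lower (-0.29), and 7 of the 10 genes in the table were not called, with a list median of -0.079. That is 2 higher and 1 lower, against 10.5% and 5.91% of all genes, and with the replicate block 2 were called higher and 5 lower, against 18.2% and 13.9%. The summed level of this list overlapped between groups, at 16.59 to 16.85 in pIGrhl2 and 16.66 to 16.83 in pcDNA samples. Its part in the change of Egr1 was not tested.

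The gene models bear on 4 of the factors. On GRCm38 (GENCODE M21), 57.2% of the exonic bases of Fosl1 are shared with Ccdc85b on the opposite strand, and 52.6% of those of Jund with Gm11175. Junb shares 7.52% with Prdx2 and Jun 7.28% with Junos. Counting without regard to strand cannot tell such reads apart. Ccdc85b, Junos and Prdx2 had differences of -0.024, 0.038 and 0.17 (adjusted p of 0.761, 0.480 and 0.162, limma), and the value of Prdx2 with the replicate block was 0.0125. The level of Junos was 3.64, well below that of Jun.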

How the data were processed

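RNA-seq was analysed in 8 samples of BMEL cells, 4 per plasmid, collected 48 h after transfection, with groups and replicate numbers taken from the sample labels. The submitters' processing notes name HISAT2 2.2.1, HTSeq 0.9.1 and DESeq2 1.40.2 with the builds mm10 and GRCm39. The methods describe exon counting without strand, removal of genes with fewer than 10 cumulated reads, and division of rlog values by mean transcript length. That this description covers these samples was assumed, since the versions it names differ in part from the notes. The values deposited by the authors were read as log2 values, although the table is named for FPKM, because 4.81% of them are below 0 and they run from -2.85 to 18.01. Length was taken to have been removed by subtracting its log2, on which all folds rest. Division by length in kb would put 827 of 18428 genes above a log2 read level of 30, and subtraction puts 0 above it (highest 17.84, GENCODE M21 lengths). No pseudocount or filter was applied, and read depth is unknown. An rlog shrinks differences of genes with few reads.

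All 18671 genes were fitted with limma 3.58.1 in R 4.3.3 (2 groups, mean-variance trend, Benjamini-Hochberg adjustment over all genes). The fit was tested on simulated data drawn independently for each sample. That test does not cover the deviations that samples shared. Single genes were also compared with an exact two-sided permutation test. Deviations from group means correlated between samples of 1 replicate number (Pearson's r across genes of 0.474 to 0.645 in all 4 pairs, from the replicate numbers in the labels). Samples of different numbers also correlated within replicates 1 and 2 and within 3 and 4, at 0.344 to 0.602. Blocked values are given for the factors and gene lists where they change a call. Nothing in the labels says that numbered samples share a culture, and p-values measure the spread between these samples.

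The factors, gene lists and tests were chosen with earlier results of these data known. Named genes were all 10 factors, Grhl2, up to 4 called genes per direction in each list by size of change, and the 5 genes with the highest Pearson's r (group means removed, mean of at least 5) for Egr1, Fos and Jun. Further genes named as examples were chosen after their values were seen. Positions are those of GENCODE M21, and promoter windows and the choice of motifs were added after the data were examined. Alternatives were equal upper quartiles, sums or medians, the replicate block, no trend, a mean of at least 5, each sample left out, and replicates 1 and 2 or 3 and 4 alone. Equal upper quartiles with the block was added after seeing the data.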

Additional observations from a re-analysis of the deposited data

Results flagged for a closer look

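Among 22 groups of 4 samples (the 10 factors and Grhl2, each in pcDNA and pIGrhl2 samples), 2 held a sample far from the others by Dixon's criterion, where chance gives about 1 in 20 groups. Jun was at 8.13 in pIGrhl2 replicate 2, above the other 3 pIGrhl2 samples, which lay between 7.58 and 7.65. Fosl2 was at 8.56 in pcDNA replicate 2, above the other 3 pcDNA samples, which lay between 8.23 and 8.26. Replicate 2 was also the highest sample of the other group for both genes. Without these samples the log2 fold change was -1.05 for Jun (adjusted p = 0.00110, limma) and -0.050 for Fosl2 (adjusted p = 0.744).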

How the results depend on the processing

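Among the values of the 10 factors under an alternative, 153 kept their side of the threshold, 14 passed it where the reported value had not, and none changed sign. Egr1, Egr2 and Jun were called by limma under all alternatives that could be computed (Egr2, Egr3 and Fosb have a mean under 5 and were left out of that filter), with ranges of 1.81 to 2.19, 0.47 to 0.77 and -1.05 to -0.80. With the replicate block the unchanged differences of Fos (-0.23), Fosb (0.17), Fosl1 (-0.41), Fosl2 (-0.13) and Jund (-0.14) were called. In replicates 3 and 4 alone Fos (-0.33), Fosl1 (-0.52) and Fosl2 (-0.17) were called, beside 2048 higher and 1667 lower over all genes. With equal upper quartiles and the block Egr3 (0.097), Fos (-0.21), Fosb (0.19), Fosl1 (-0.39) and Jund (-0.12) were called, and Fosl2 was not (adjusted p = 0.0777). With 1 sample left out Fosl1 ran from -0.56 to -0.30, called only without pIGrhl2 replicate 2. Fos ran from -0.38 to -0.10, Fosb from 0.063 to 0.25 and Fosl2 from -0.20 to -0.050. Egr3 ran from 0.047 to 0.10, Junb from 0.054 to 0.11 and Jund from -0.17 to -0.10. Apart from Fosl1, none of these was called with 1 sample left out. The cause of these shifts was not tested.

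Over all genes, 1957 were called higher and 1104 lower, and 3048 of these 3061 were called again with the block. The counts were 3064 and 972 with equal upper quartiles (75.9% higher, against 63.9%), 2912 and 869 with equal sums (77.0%), 1119 and 1256 with equal medians (47.1%), 3396 and 2589 with the replicate block, 4583 and 2091 with both, 715 and 899 with a mean of at least 5 (44.3%), 1021 and 339 in replicates 1 and 2, and 2048 and 1667 in replicates 3 and 4. With 1 sample left out the lower count ran from 690 (without pIGrhl2 replicate 3) to 1036, and it was 691 without pcDNA replicate 1, 722 without pIGrhl2 replicate 1 and 719 without pIGrhl2 replicate 4. The scalings shifted the median of all genes to between -0.024 and 0.031. As depth is unknown, low genes such as Egr3 and Egr4 limit what can be seen.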
